A study of Mus musculus with 12 samples.

Results

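The genes described here encode the building blocks of the 3 filament systems of the cell and number 10 of the 11289 genes in the expression table: the alpha-tubulins Tuba1a, Tuba1b and Tuba1c, the beta-tubulins Tubb2a, Tubb5 and Tubb6, the cytoplasmic actins Actb and Actg1, and the keratins Krt8 and Krt18. They were taken by gene symbol, and all 10 were found. The values come from liver RNA of 12 C57BL/6J mice, which the study describes as male and the labels as 8 to 10 weeks old. The 4 mice of the Con A group were given concanavalin A (Con A), a jack bean lectin used to cause hepatitis mediated by T cells, at 15 mg/kg through the tail vein, and phosphate-buffered saline (PBS) 30 min later. The 4 mice of the Con A + MSCs group received the same Con A. They were given 2000000 human umbilical cord mesenchymal stem cells (hUC-MSCs, which the study calls hWJ-MSCs) in 200 µL PBS 30 min later. Livers of both groups were taken 24 h after Con A. The labels give no treatment for the 4 control (Ctrl) mice. The study itself states a different number of cells and a younger age than the labels.

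Alpha- and beta-tubulin pair into dimers that build microtubules, actin forms the filaments of the cell cortex, and Krt8 and Krt18 pair into the intermediate filaments of hepatocytes. Free tubulin dimers lower the stability of tubulin mRNAs, and free actin monomers restrain the transcription factor SRF through its cofactor MRTF, so that both systems are known to adjust their own mRNAs. Krt8 and Krt18 are the keratins of normal hepatocytes, are known to be raised in injured liver, and are main components of Mallory-Denk bodies, the inclusions of damaged hepatocytes. Actb is also a common reference gene of RT-qPCR and its protein a loading control of western blots.

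All values are the authors' normalized scores, whole numbers without a unit per transcript length, so levels are compared between mice and not between genes. The depth behind them is unknown. Fold changes are differences of log2(score + 1), given with a standard error (SE), and were called at a limma adjusted p (Benjamini-Hochberg over all genes) below 0.05 with a fold change above 1.5.

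Con A raised most of the 10 genes. Between Con A and Ctrl mice, 8 of 10 were called higher, against 19.5% of all genes, and none was called lower, against 19.2% of all genes. In 9 of 10 the 4 Con A mice all lay above the 4 Ctrl mice, which held for 27.1% of all genes. The median log2 fold change of the 10 was 1.31, against 0.05 over all genes, and the range was 0.38 to 2.31. These are bulk samples, in which more or fewer cells of a type and more or less RNA per cell cannot be told apart. The plot of values by mouse shows 2 members that passed no call, Tubb2a and Actb.

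**Figure D1:**
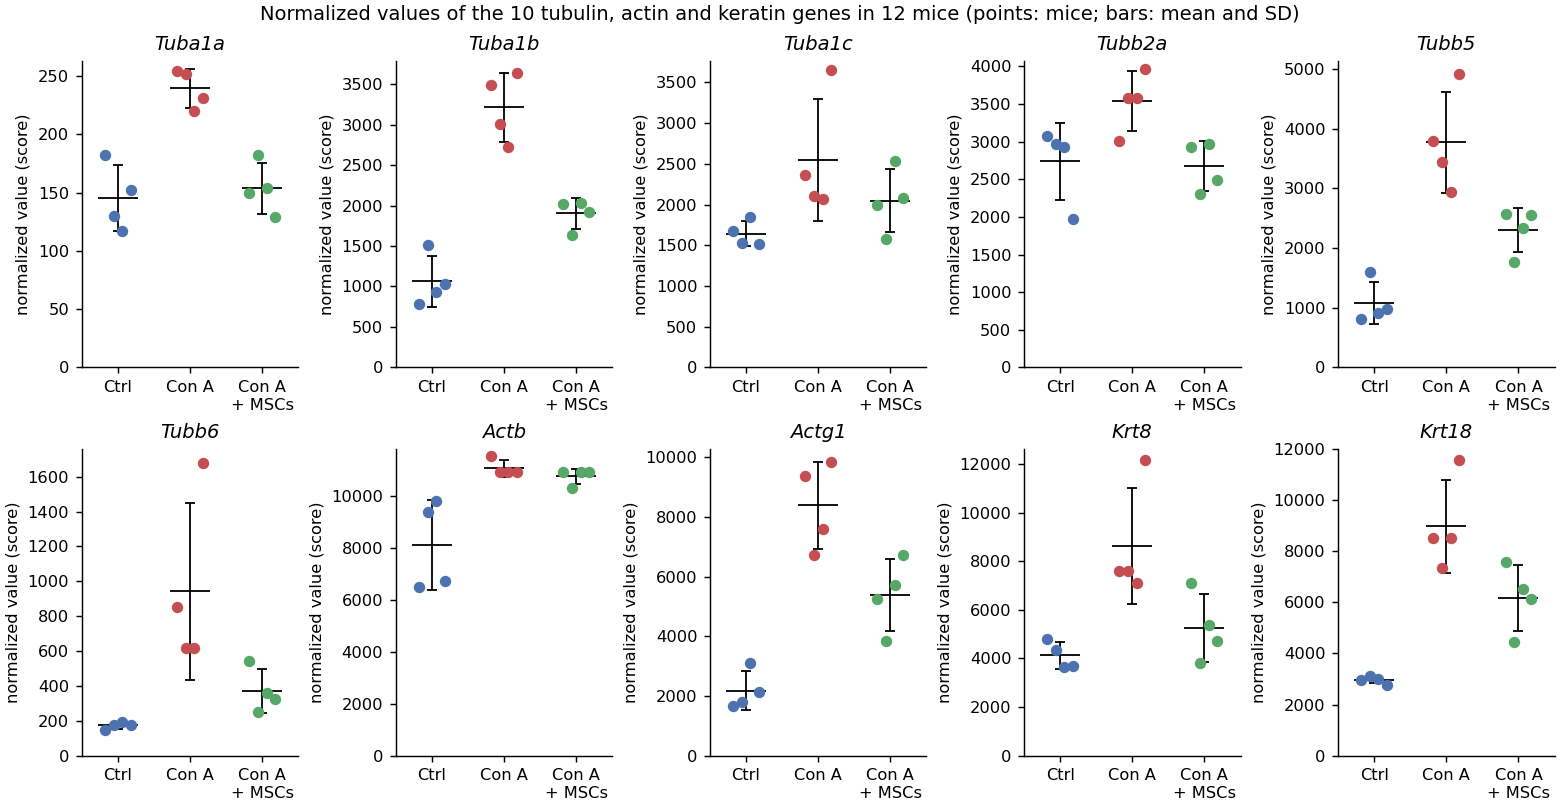
Normalized score (y axis, linear from 0) of each of the 10 genes in each mouse, by group (x axis). Points are mice, the long bar is the group mean and the short bars are 1 SD on either side (n = 4). In every panel but that of Tubb2a all 4 Con A mice lie above all 4 Ctrl mice, and Actb in the treated groups stays between 10329 and 11566.

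Among the alpha-tubulins Tuba1b rose most. Tuba1b, the main alpha-tubulin of many tissues, had scores of 781, 1514, 928 and 1028 in the Ctrl mice and 3486, 3003, 2724 and 3639 in the Con A mice. The groups did not overlap, and the lowest Con A mouse had 2724 against 1514 in the highest Ctrl mouse. The log2 fold change was 1.63 ± 0.18 (SE), a 3.09-fold rise (limma adjusted p = 1.51e-05). Tuba1a, best known as the alpha-tubulin of developing neurons, stood at 182, 130, 117 and 152 in Ctrl and 254, 252, 220 and 231 in Con A livers. It rose by 0.73 ± 0.15 on the log2 scale (limma adjusted p = 0.00114). Tuba1c, the third of these neighbouring genes, had 1672, 1530, 1844 and 1519 in Ctrl and 2362, 2107, 2062 and 3652 in Con A mice. Its log2 fold change of 0.60 ± 0.19 (limma adjusted p = 0.0158) was a fold of 1.51, just past the threshold of 1.5. Without Con A mouse 4, which held the value of 3652, it was 0.41 and no longer called, and leaving out Ctrl mouse 2 or Ctrl mouse 4 also ended the call (0.56 each).

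The 3 alpha-tubulin genes lie within 106681 bases of chromosome 15 (mm10 coordinates throughout), Tuba1b at 98931425-98934565 and Tuba1a at 98949841-98953551 on the minus strand and Tuba1c at 99029891-99038105 on the plus strand, each with 4 exons. Their transcripts are close copies of each other. Of the 150-base windows of the transcript, 54.7% for Tuba1a, 57.9% for Tuba1b and 46.7% for Tuba1c were also found in transcripts of other genes, and 29.4%, 43.4% and 46.7% in those of the other alpha-tubulins here. How reads were shared out among them is not given in the sources used here, so the split of the alpha-tubulin signal between these 3 genes is uncertain.

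Among the beta-tubulins Tubb5 and Tubb6 rose and Tubb2a was not called. Tubb5, a beta-tubulin made in most tissues, had 816, 1596, 906 and 982 in Ctrl mice and 3798, 3442, 2934 and 4923 in Con A mice. Its log2 fold change was 1.84 ± 0.22, or 3.57-fold (limma adjusted p = 2.51e-05). Tubb6, a divergent beta-tubulin, had 148, 178, 192 and 173 in Ctrl mice and 852, 619, 615 and 1682 in Con A mice. It had the largest change of the 10 genes, 2.31 ± 0.30 on the log2 scale (limma adjusted p = 4.99e-05), and stayed called without Con A mouse 4, the mouse at 1682, at 1.99. Tubb2a, a beta-tubulin abundant in brain, had 3081, 2968, 2934 and 1972 in Ctrl and 3003, 3586, 3586 and 3970 in Con A mice. Its groups overlapped at 3003 and 3081, and the log2 fold change of 0.38 ± 0.16 missed the threshold (limma adjusted p = 0.0510).

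Tubb2a lies on chromosome 13 at 34074301-34078008 and Tubb5 on chromosome 17 at 35833921-35838306, both on the minus strand with 4 exons. Of the 150-base windows of Tubb2a, 27.9% were found in other genes and none in the other members, and Tubb5 and Tubb6 shared none. The window length is that of the reads.

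The paired actins differed in how far they moved. Actg1, cytoplasmic gamma-actin, had 1665, 1804, 3118 and 2119 in Ctrl mice and 9381, 6736, 7595 and 9841 in Con A mice. The rise was 1.97 ± 0.22 on the log2 scale, or 3.93-fold (limma adjusted p = 1.55e-05). Actb, cytoplasmic beta-actin, had 6516, 9381, 9841 and 6736 in Ctrl mice and 11566, 10925, 10925 and 10925 in Con A mice. All 4 Con A mice were above all 4 Ctrl mice, and the log2 fold change of 0.47 ± 0.14 passed the adjusted p (limma, 0.0123) but not the fold threshold, at 1.39-fold. The spread of Actb was 1736 (SD, n = 4) in Ctrl and 320.5 in Con A mice.

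The even Actb values after Con A have to be read with the way the table is built. Actb took 7 distinct values over the 12 mice, and 6 mice stood at exactly 10925. The number of genes scoring above Actb was 177 to 317 and ended in 7 in all 12 mice, so in these mice its rank moved only in steps of 10 places. The same steps of 10 places were seen for Krt8, Krt18 and Tubb2a in all 12 mice. Differences smaller than such a step cannot be seen in these genes. Actb lies on chromosome 5 at 142903115-142906754 and Actg1 on chromosome 11 at 120345690-120348542, both on the minus strand with 6 exons. Windows of 150 bases of Actb occurred in no other gene, while 43.5% of those of Actg1 occurred in other genes outside the 10.

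Both keratins rose, Krt18 further than Krt8. Krt18, the type I keratin of hepatocytes, had 2966, 3118, 3001 and 2782 in Ctrl mice and 8514, 7330, 8514 and 11566 in Con A mice. Its log2 fold change was 1.58 ± 0.17, or 2.99-fold (limma adjusted p = 1.31e-05). Krt8, its type II partner, had 4824, 4366, 3636 and 3690 in Ctrl and 7595, 7595, 7116 and 12196 in Con A mice, a change of 1.04 ± 0.21 on the log2 scale (limma adjusted p = 0.00122). Con A mouse 4 was the highest Con A mouse for both keratins and for 8 of the 10 genes. Without it both keratins were still called. The keratin genes are neighbours on chromosome 15, Krt8 at 101996711-102004342 on the minus strand with 9 exons and Krt18 at 102028216-102032026 on the plus strand with 7 exons, 23873 bases apart.

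After MSCs all 10 genes had lower estimates than after Con A alone, and 4 of 10 were called lower, against 4.38% of all genes. In 5 of 10 the 4 Con A + MSCs mice all lay below the 4 Con A mice, against 11.6% of all genes. The median log2 fold change was -0.65, against 0.00 over all genes. The called genes were Tubb6, Tuba1b, Krt8 and Tuba1a.

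**Figure D2:**
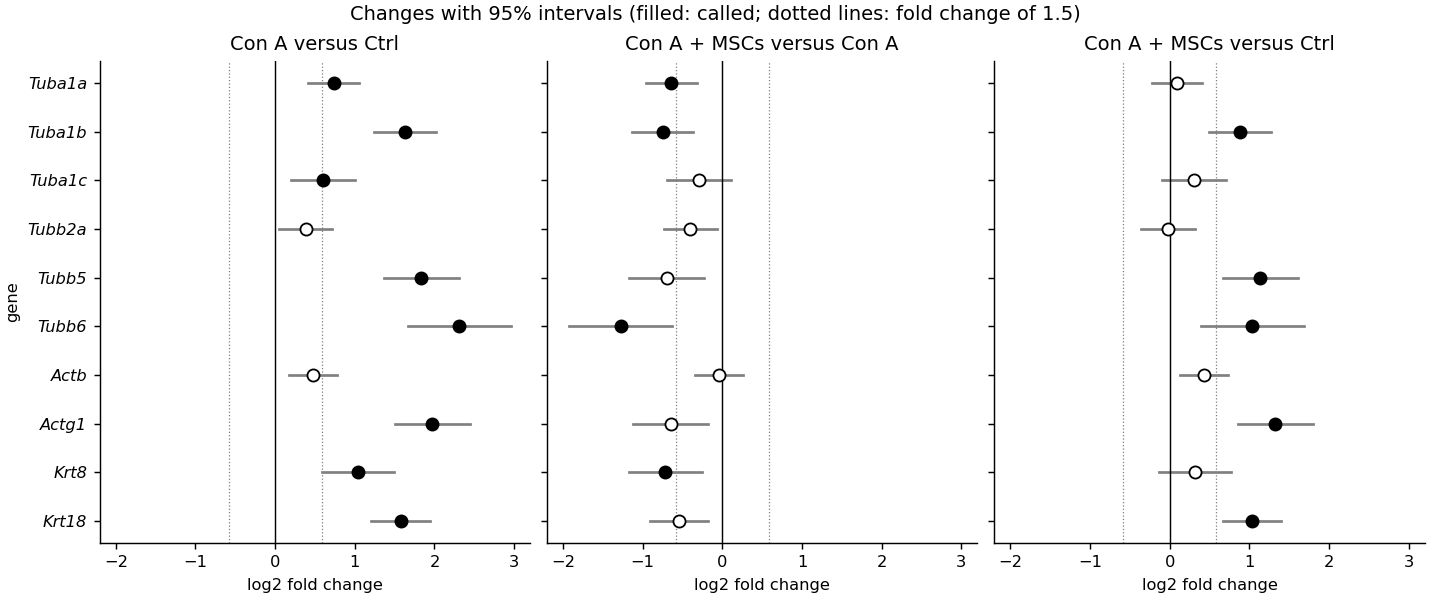
Log2 fold change of log2(score + 1) (x axis) of each gene (y axis) in the 3 comparisons. Points are limma estimates with 95% intervals, filled where called, and dotted lines mark a fold change of 1.5. All 8 calls of the left panel are to the right of 0, and the 4 calls of the middle panel are to the left.

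Tubb6 had 544, 248, 358 and 325 in the Con A + MSCs mice, all below the lowest Con A mouse at 615. Its log2 fold change was -1.28 ± 0.30 (limma adjusted p = 0.0266), the largest of the 10, and in the fit of the 8 mice compared it was not called (limma adjusted p = 0.0525). Tuba1b had 2021, 1634, 2036 and 1918, below the Con A range of 2724 to 3639 without overlap. It fell by 0.75 on the log2 scale with an SE of 0.18 (limma adjusted p = 0.0270). Tuba1a had 150, 182, 154 and 129, within the Ctrl range of 117 to 182, and its log2 fold change against Con A was -0.64 (limma adjusted p = 0.0255). Krt8 had 7116, 3795, 5376 and 4732, and its mouse at 7116 equalled the lowest Con A mouse. Its log2 fold change was -0.72 (limma adjusted p = 0.0452), and the call was lost in 9 of the 12 fits that leave out 1 mouse, without the eBayes trend (limma adjusted p = 0.0517) and in the fit of the 8 mice compared (limma adjusted p = 0.0701).

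The 6 members that were not called had log2 fold changes between -0.70 and -0.04. Tubb5 had 2574, 1775, 2337 and 2548, all below the Con A mice, with -0.70 (limma adjusted p = 0.0509). Krt18 had 7595, 4452, 6516 and 6147 with -0.55 (limma adjusted p = 0.0519), and Actg1 had 5239, 3854, 5726 and 6736 with -0.65 (limma adjusted p = 0.0619). Each of these last 2 genes had 1 mouse that reached the Con A range. Tubb2a had 2934, 2306, 2968 and 2494, all below the Con A mice, with -0.40 (limma adjusted p = 0.0895). Tuba1c had 1992, 1582, 2530 and 2084, of which 2 lay within the Con A range, with -0.29 (limma adjusted p = 0.277). Actb had 10925, 10329, 10925 and 10925 with -0.04, and the 95% interval of its change ran from -0.35 to 0.26 (limma adjusted p = 0.863).

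The calls after MSCs depend on single mice. Con A + MSCs mouse 2 was the lowest of its group for 9 of the 10 genes. None of the 10 genes was called without Con A mouse 1, without Con A + MSCs mouse 2 or without Con A + MSCs mouse 3, and 1 was called without Con A mouse 4. The calls of all genes went the same way in these fits. Of 11289 genes 969 were called in either direction with all mice, 7 without Con A mouse 1, 18 without Con A + MSCs mouse 2, 7 without Con A + MSCs mouse 3 and 285 without Con A mouse 4. The loss of calls was thus not limited to the 10 genes.

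Compared with Ctrl, 5 of the 10 genes were still called higher in the Con A + MSCs mice, against 13.6% of all genes. This comparison shares its mice with the 2 others. In 6 of 10 all 4 mice lay above the 4 Ctrl mice, against 20.6% of all genes. The called genes were Actg1 at a log2 fold change of 1.32, Tubb5 at 1.14, Tubb6 at 1.04, Krt18 at 1.03 and Tuba1b at 0.88 (limma adjusted p from 0.000540 to 0.0153). Without Con A + MSCs mouse 1, Tubb6 was at 0.83 and no longer called (limma adjusted p = 0.0510). Actb again lay above all Ctrl mice, at 0.43 (limma adjusted p = 0.0265), under the fold threshold. The remaining estimates were 0.32 for Krt8, 0.30 for Tuba1c, 0.09 for Tuba1a and -0.02 for Tubb2a, none of them past the adjusted p. The mean of the Con A + MSCs mice lay between the other group means for 9 of 10 genes, Tubb2a being the exception. The same count was not made over all genes, so it is not read as particular to the 10.

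Whether paired genes moved unequally was tested on log2 ratios within each mouse, for 8 pairs in each of the 3 comparisons. A two-sided exact permutation test of 4 mice against 4 cannot give a p below 0.0286, and none of the 24 p-values stayed below 0.05 after Benjamini-Hochberg adjustment over all 24. The ratios carry no correction for transcript length, so their shift between groups is what can be read.

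Actb lost ground to Actg1. The log2 ratio of Actb to Actg1 was 1.92 ± 0.34 (SD, n = 4) in Ctrl and 0.42 ± 0.24 in Con A mice, without overlap, a shift of -1.50 (exact permutation p = 0.0286, adjusted 0.0686). In Con A + MSCs mice it was 1.03 ± 0.30 (SD, n = 4), 0.61 above Con A (exact permutation p = 0.0571, adjusted 0.114) and 0.89 below Ctrl (exact permutation p = 0.0286, adjusted 0.0686). The shift of Krt8 to Krt18 was smaller. It went from 0.47 ± 0.18 in Ctrl to -0.07 ± 0.16 in Con A mice (SD, n = 4, exact permutation p = 0.0286, adjusted 0.0686), and stood at -0.24 ± 0.12 in Con A + MSCs mice, with no overlap with Ctrl.

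Within the tubulins, Tubb2a to Tubb5 had the widest shift. The log2 ratio was 1.38 ± 0.50 in Ctrl and -0.08 ± 0.30 in Con A mice (SD, n = 4, exact permutation p = 0.0286, adjusted 0.0686). Tuba1c to Tuba1b shifted by -1.03, Tuba1a to Tuba1b by -0.90 and Tuba1b to Tubb5 by -0.21 between Ctrl and Con A (exact permutation p = 0.0286 and adjusted 0.0686 for each), the first 2 subject to the shared sequence of the alpha-tubulins. The profiles of Tuba1b and Tubb5 over the 12 mice, each centred on its Ctrl mean, showed the smallest root mean square difference of any pair of members, 0.22 on the log2 scale. Tubb6 to Tubb5 shifted by 0.48 with overlapping groups (exact permutation p = 0.143, adjusted 0.214). Between Con A + MSCs and Con A mice no pair reached an unadjusted p of 0.05.

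**Figure D3:**
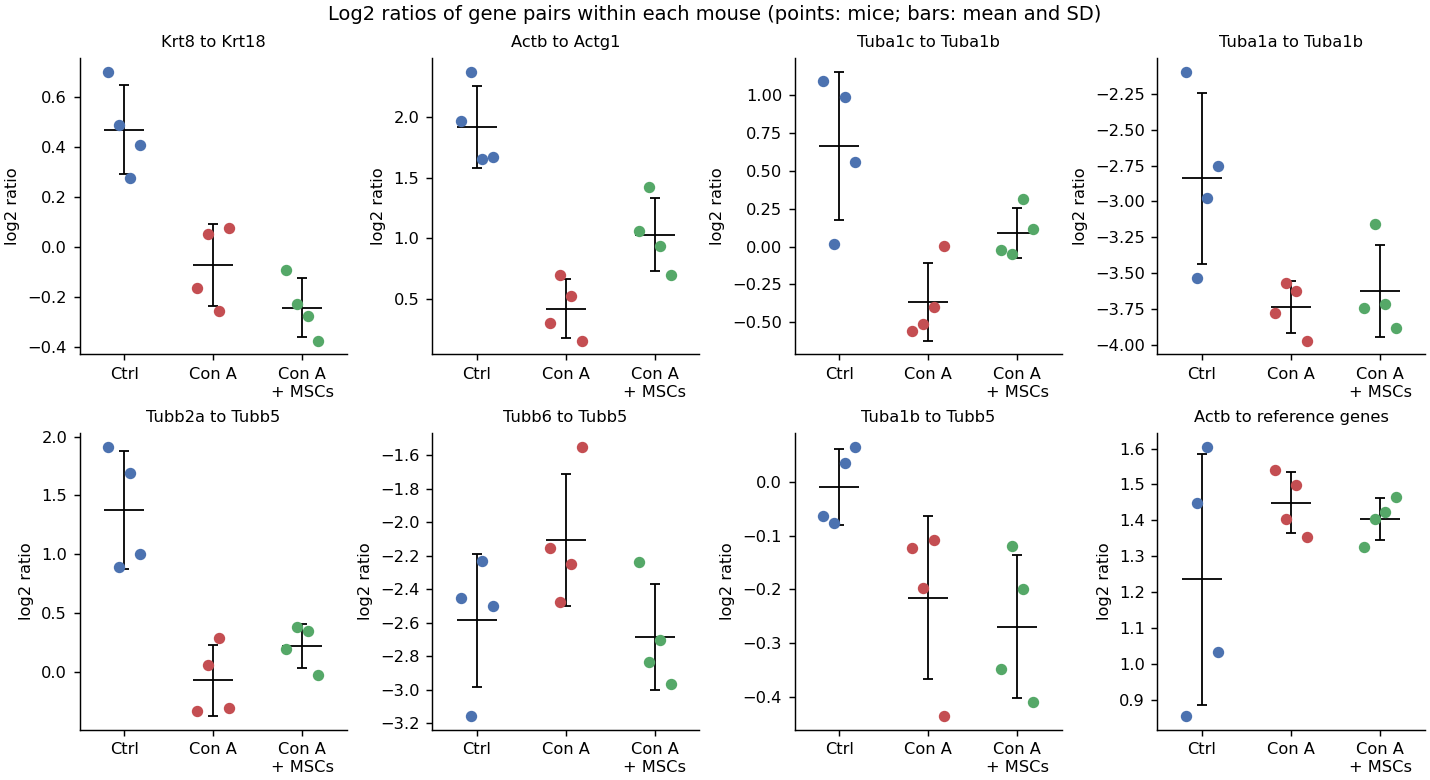
Log2 ratio of 2 genes within each mouse (y axis, each panel with its own range) by group (x axis) for the 8 pairs. Points are mice and bars the mean and 1 SD (n = 4). Actb to Actg1 runs from 1.66 to 2.38 in Ctrl and from 0.15 to 0.70 in Con A mice, and Actb to the mean of 15 reference genes overlaps between groups.

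As a reference gene Actb was set beside the others in use. The log2 ratio of Actb to the mean of 15 other reference genes was 1.24 ± 0.35 in Ctrl and 1.45 ± 0.09 in Con A mice (SD, n = 4), a difference of 0.21 with overlapping groups (exact permutation p = 0.371, adjusted 0.446). Of the 15, 4 were called higher after Con A and 1 lower, beside 19.5% and 19.2% of all genes, and their median log2 fold change was 0.21. Pgk1, a glycolytic kinase, rose by 1.66 ± 0.18 on the log2 scale (limma adjusted p = 1.27e-05), and Hprt, a purine salvage enzyme, by 1.03 ± 0.14 (limma adjusted p = 9.04e-05). Gapdh, the glycolytic dehydrogenase, stood at -0.36 (limma adjusted p = 0.144), the TATA-binding protein gene Tbp at 0.01, the cyclophilin gene Ppia at 0.28 and B2m at 0.21, none of them called. B2m had exactly 29578 in all 4 Ctrl mice and exactly 34238 in all 4 Con A mice, without overlap. Eef1a1, another of the 15, had 72606 in every Con A and Con A + MSCs mouse. Both genes enter the mean of the 15, and ties between mice limit their values as they do those of Actb. After MSCs none of the 15 was called against Con A.

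Upstream sequences are shown for 3 genes that moved differently, Actg1 and Tubb5, which rose, and Tubb2a, which was not called. They come from the RefSeq promoter table (GRCm38.p6), in which 8 of the 10 genes were found and Actb and Tubb6 were not, and run on the minus strand up to the most upstream annotated start. Capitals mark a CArG box, the sequence bound by SRF, the CCAAT box, bound by NF-Y, and TATAAA, bound by TBP.
Actg1, chr11:120348543-120348745: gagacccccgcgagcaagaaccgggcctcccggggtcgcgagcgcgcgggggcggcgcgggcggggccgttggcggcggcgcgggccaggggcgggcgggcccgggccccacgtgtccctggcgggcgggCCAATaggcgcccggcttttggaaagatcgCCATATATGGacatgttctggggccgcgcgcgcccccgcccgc
Tubb5, chr17:35838307-35838551: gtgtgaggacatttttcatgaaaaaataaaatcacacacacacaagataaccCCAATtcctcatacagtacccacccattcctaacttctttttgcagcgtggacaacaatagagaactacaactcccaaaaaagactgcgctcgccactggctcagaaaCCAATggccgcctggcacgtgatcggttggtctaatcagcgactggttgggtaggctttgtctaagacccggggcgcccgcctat
Tubb2a, chr13:34078009-34078258: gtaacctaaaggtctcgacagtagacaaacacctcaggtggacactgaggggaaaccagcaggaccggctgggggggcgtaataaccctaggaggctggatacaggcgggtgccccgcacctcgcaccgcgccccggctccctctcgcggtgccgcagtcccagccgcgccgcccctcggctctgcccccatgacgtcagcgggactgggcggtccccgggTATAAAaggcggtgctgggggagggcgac
Positions are counted from the RefSeq start. In Actg1 47 bases and in Tubb5 5 bases lie between the printed sequence and this start, while that of Tubb2a ends at it. In Actg1 the CArG box begins 90 bases and the CCAAT box 120 bases upstream of the RefSeq start. In Tubb5 the CCAAT boxes begin 198 and 90 bases upstream, and in Tubb2a TATAAA begins 29 bases upstream.

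Motifs were searched on both strands in the 300 bases around each start. A CArG box was present in 1 of the 8 genes, Actg1, and in 1.63% of all 32851 promoter windows. GGGCGG, the core of the sequence bound by Sp1, was present in 5 of 8 (Actg1, Tubb2a, Tuba1b, Tuba1a and Tubb5) and in 35.7% of all windows, and in Actg1 it occurred 6 times, with some copies overlapping. CCAAT was present in 4 of 8 (Actg1, Tuba1a, Tuba1c and Tubb5) against 37.4%, and TATAAA in 2 of 8 (Tubb2a and, as overlapping copies at the start itself, Krt8) against 13.6%. The NF-kB consensus was present in Krt18 alone of the 8, 47 bases upstream, against 8.46% of all windows. Neither TGACTCA (AP-1, 5.20% of windows) nor TTCNNNGAA (STAT, 8.30%) was found in the windows of the 8 genes. These are matches of letters, and no binding was measured.

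Other genes of the same systems were counted in lists, to be read beside the shares of all genes, 19.5% called higher and 19.2% called lower after Con A and 4.38% called lower after MSCs, and beside the all-gene medians of 0.05 and 0.00. Every gene of the table reaches a score of 64 in at least 2 mice, so a gene that does so in fewer than 2 Ctrl mice is in the table only because some treated mice are higher. None of the 10 members is of this kind, their lowest score being 117, but some genes of the lists are. Of 13 other tubulins 5 were in the table, and 2 were called higher after Con A. Tubb4b had a log2 fold change of 0.98 ± 0.16 (limma adjusted p = 0.000235), and Tuba8, at 36 to 55 in Ctrl and 120 to 182 in Con A mice, is in the table only through the treated mice. The median of the 5 was 0.42. Of 23 genes listed for the folding or regulation of tubulin and actin, 8 were called higher and none lower, with a median of 0.39. The 8 included the tubulin cofactor Tbcb (1.03) and the chaperonin subunit Cct2 (0.82). Among 24 microtubule-binding proteins and motors 7 were called higher and 3 lower, with a median of 0.11 against 0.05 over all genes. The dynein light chain Dynll1 was at 1.62 and the kinesin Kif5b at 1.40, and Atat1, the acetyltransferase of alpha-tubulin, was at -1.06. After MSCs none of the other tubulins and of these 23 genes was called, and Kif5b fell by 0.96 on the log2 scale (limma adjusted p = 0.0266).

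Actin regulators are counted beside the same shares. Of 22 genes of actin monomer binding and filament turnover 12 were called higher and 1 lower after Con A, against 19.5% and 19.2% of all genes, with a median of 0.64, and 2 of the 12 are in the table only through the treated mice. The monomer-binding thymosin Tmsb10 was at 3.34 ± 0.36 (limma adjusted p = 1.38e-05), Coro1a, a coronin that is also a leukocyte marker, at 1.86 and the severing protein Gsn at -1.26. Of 25 crosslinking and contractile genes 11 were called higher and 2 lower, 1 of the latter in the table only through the Ctrl mice, with a median of 0.51. They included the tropomyosins Tpm4 at 1.61 ± 0.10 (limma adjusted p = 3.15e-07) and Tpm1 at 1.48, and the plastin Pls3 at -0.90. The actins of muscle, Acta1, Acta2, Actc1 and Actg2, were not in the table, and 3 of 9 other genes of the actin and Arp2/3 list were called higher, led by Actr3 (1.19) and Arpc1b (0.86), with a list median of 0.51. Of 15 focal adhesion linkers 6 were called higher and 1 lower, with a median of 0.27, Vcl being at 1.01 and Tln2 at -1.61.

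Of 14 genes for SRF, MRTF and their upstream GTPases and kinases 7 were called higher and none lower after Con A, led by Rhoc (1.96) and Limk1 (1.19), with a median of 0.55. Limk1, which inactivates cofilin, had 29 to 38 in Ctrl, 62 to 87 in Con A and 33 to 55 in Con A + MSCs mice, so it is in the table only through the Con A mice and its calls in both comparisons, the lower one after MSCs included, were largely fixed by the floor. Against Con A, 3 of these 14 were called lower after MSCs, as were 6 of the 25 crosslinking genes and 1 of the 15 linkers, beside 4.38% of all genes. The medians of these lists were -0.41, -0.27 and -0.31. Of the 22 turnover genes 2 were called lower, with a median of -0.02, and of the 9 actin and Arp2/3 genes 1, with a median of -0.11. Of the 24 microtubule genes 2 were called lower, with a median of -0.09. Vcl, which ties actin to adhesions, fell by 1.27 on the log2 scale (limma adjusted p = 0.0188), Actr3 by 0.63 and Tpm4 by 0.59 (limma adjusted p = 0.0188 for each). Tmsb10 and Coro1a were at -0.21 and 0.09 and were not called.

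None of 10 other keratins was in the table. Of 15 other intermediate filament and plakin genes 6 were called higher and 1 lower after Con A, with a median of 0.41. Lamin A/C (Lmna) was at 1.26, vimentin (Vim) at 1.11 and the desmosomal cadherin Dsg2 at -0.95. Among 12 genes of proteins known from Mallory-Denk bodies or their models 8 were called higher and 2 lower, with a median of 1.18. Ubd, a ubiquitin-like modifier, had scores of 4 to 7 in Ctrl and 234 to 1538 in Con A mice, and the heat shock protein gene Hspa1a 6 to 32 and 134 to 270. Both are in the table only through the treated mice, so that a rise over Ctrl was fixed by the floor of 64 and no fold against Ctrl is read from them. Both are among the 8 called higher and enter the median. Nqo1, an NRF2 target, was at -1.55. After MSCs 2 of these 12 and 3 of the 15 filament genes were called lower, with medians of -0.22 and -0.23. Among the 3 is Nes, named after its values were seen, at 44 to 64 in Ctrl, 54 to 80 in Con A and 14 to 28 in Con A + MSCs mice, which is in the table through the Con A mice, so its lower call was largely fixed by the floor. Hspa1a was at -1.27 and missed the threshold (limma adjusted p = 0.0725), although its 4 Con A + MSCs mice, at 73 to 118, all lay below the 4 Con A mice. Ubd and Vim were at 0.46 and 0.26 and were not called.

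**Figure D4:**
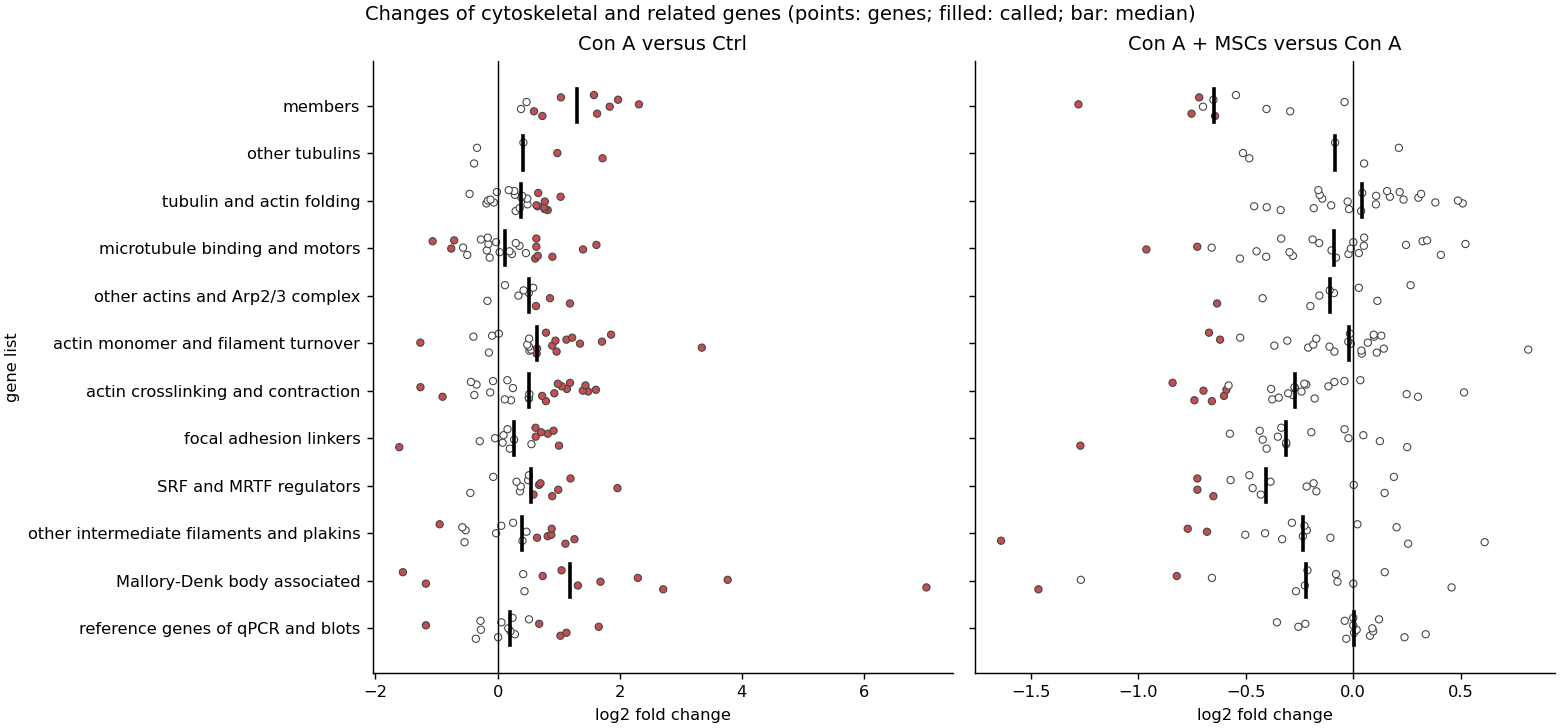
Log2 fold change (x axis, a different range in each panel) of every gene of each list (y axis), after Con A against Ctrl and after Con A + MSCs against Con A. Points are genes, filled where called, and the thick bar is the median of the list. The 10 members have a median of 1.31 on the left and -0.65 on the right, and in the right panel every filled point lies below 0.

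Markers of cell types moved in the same livers. Their counts are read beside all genes, of which 19.5% were called higher and 19.2% lower after Con A. After MSCs against Con A, 474 of 11289 genes were called higher and 495 lower. The 8 hepatocyte markers were all in the table, and their summed score was 961137 to 1169110 in Ctrl, 693228 to 722299 in Con A and 716945 to 775394 in Con A + MSCs mice. Of the 8, 3 were called lower after Con A and none after MSCs against Con A. The 8 pan-leukocyte markers, 4 of them called higher and 1 lower after Con A, summed to 1519 to 2043, 2151 to 3301 and 1989 to 3201. The 4 neutrophil markers in the table were all called higher, from 58 to 133 in Ctrl to 762 to 1743 in Con A and 779 to 1584 in Con A + MSCs mice. All 4 are in the table only through the treated mice, so their calls were largely fixed by its floor. Of 6 Kupffer cell and macrophage markers 5 were called lower and 1 higher, and 4 of 6 endothelial and 3 of 6 stellate cell and fibroblast markers were called lower. Of those lower calls 2 Kupffer cell and 2 endothelial markers are in the table only through the Ctrl mice. After MSCs against Con A 1 endothelial marker was called higher and 1 lower, with a median of 0.41. The T cell markers Cd3e, Cd3d, Cd3g, Cd4 and Trac were not in the table, and Cd8a, at 0 to 12 in Ctrl and 38 to 98 in Con A mice, is there only through the treated mice. Of the 6 cholangiocyte markers 3 were in the table, with Krt7, Krt19 and Cldn7 missing, and their sum was 2254 to 4431 in Ctrl, 2340 to 13241 in Con A and 2208 to 6466 in Con A + MSCs mice. Their median log2 fold change was 0.86 after Con A, with 1 called higher, and -0.60 after MSCs against Con A, with none called. The 2 proliferation markers in the table, both called higher and 1 of them there only through the treated mice, summed to 66 to 244 in Ctrl, 153 to 416 in Con A and 202 to 365 in Con A + MSCs mice. The part of these shifts in the tubulin, actin and keratin values was not tested.

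For 3 members the genes outside the 10 with the most similar profile over the 12 mice were found, as the smallest root mean square difference of log2 values centred on the Ctrl mean. For Actb they were Aars, Srpk1 and Slc35f6, each at a difference of 0.10 to 0.11. For Tubb5 they were Ehd4 (0.21), Adamts1 (0.23) and Chmp4b (0.24), while Tuba1b, itself a member, stood at 0.22. For Krt8 they were Slc3a2 (0.12), Gpi1 (0.15) and Abcc1 (0.16). The likeness is a description of these mice.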

How the data were processed

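Poly(A) RNA of 12 livers was sequenced in read pairs of 150 bases, with 4 mice per group, and groups were taken from the sample titles. The authors deposited 1 whole-number score per gene and mouse, already normalized between mice and therefore not a raw count. All 12 columns have a median of 352, their totals differ by at most 0.0425% of the median total, and every gene reaches 64 in at least 2 mice. The labels name Bowtie2 2.2.1, RSEM 1.2.18 and mm10 without saying what each was used for, and the normalization is not given in the sources used here. Depth is unknown, so no counting interval or detection limit is given. The floor of 64 is only the level that every gene of the table reaches in at least 2 mice. The study used DESeq2, which needs counts and was not run. After adding a pseudocount of 1, log2 scores of all 11289 genes and 12 mice entered a single limma model (version 3.58.1, R 4.3.3, lmFit and eBayes with trend) with 9 residual degrees of freedom and no covariates. The script was tested on simulated data. Ratios within mice were compared by two-sided exact permutation tests (scipy 1.17.1). Other steps used Python 3.11.15, pandas 2.3.3, numpy 2.4.6 and matplotlib 3.10.9. Shared sequence was searched in GENCODE M21 transcripts (GRCm38, the assembly of mm10), and the promoters are RefSeq's. No 2 mice had more than 2% of equal values, so all were kept as separate replicates.

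The members and the gene lists were chosen with earlier results of these data known, so their counts stand beside those of all genes and no list was tested. In each list the 2 called genes with the largest change after Con A whose groups did not overlap were named, with the largest of the opposite direction, and 5 reference genes were named whatever their change. The values of 1 gene that this rule selects are not reported here. Alternatives were another pseudocount, a filter on low values, median centring, quantile normalization, no trend, fits of 8 mice, unadjusted p, a fold change of 2, a replicate block and leaving out each mouse.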

Additional observations from a re-analysis of the deposited data

Results flagged for a closer look

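In 4 of the 54 sets of 4 mice examined (7.41%, where chance gives about 1 in 20), 1 mouse stood apart from the other 3, measured as its gap to the nearest mouse over the range of the group. For Tubb2a in Ctrl this share was 0.890, with mouse 4 at 1972 and the others at 2934 to 3081. For Krt8 in Con A it was 0.879, with mouse 4 at 12196 and the others at 7116 to 7595. For Actb in Con A it was 1, with 3 mice at exactly 10925 and 1 at 11566, and for Actb in Con A + MSCs it was also 1, with 3 mice at 10925 and 1 at 10329. Both Actb values come with ties between mice.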

How the results depend on the processing

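After Con A the count of called members was 8, and leaving out each mouse gave 7 to 8. After Con A + MSCs against Ctrl it was 5, and 4 to 5 without single mice. Against Con A it was 4, and 0 to 6 without single mice (0 without Con A mouse 1, Con A + MSCs mouse 2 or Con A + MSCs mouse 3). With a fold change above 2 it was 1, and with unadjusted p 6. Of all genes, 969 were called in that comparison, 7 to 1575 without single mice, 353 with a fold change above 2 and 1697 with unadjusted p. A fold change above 2 left 2391 of 4379 genes after Con A and 1539 of 3015 in Con A + MSCs against Ctrl. No called value reversed. The call of Krt8 after MSCs was lost in 9 of the 12 fits without a mouse, without the trend (adjusted p = 0.0517) and in the fit of 8 mice (0.0701), and that of Tubb6 in the fit of 8 mice (0.0525). Tubb5 was called with a pseudocount of 10 (0.0490), with a mean of at least 100 (0.0480) and in the fit of 8 mice (0.0464). The cause of these changes was not tested. Deviations of mice with the same replicate number correlated at -0.12 to 0.37 between groups. In Con A + MSCs against Con A, numbers 2 (0.37) and 4 (0.24) matched best with their own number, and 1 and 3 did not. Whether the numbers pair the mice was thus not settled. With a replicate block 5 members and 1297 genes in all were called after MSCs against Con A, Actg1 among them (limma adjusted p = 0.0362). The depth of the libraries is unknown.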
